A study of Mus musculus with 19 samples.

Results

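Semaphorins are guidance ligands, and plexins and neuropilins are their receptors. The family was taken as every gene of the table whose symbol is Sema3 to Sema7 with a letter, Plxna to Plxnd with a number, Nrp1 or Nrp2, which gave 31 of 36172 genes: 7 secreted semaphorins, 13 membrane semaphorins, 9 plexins and 2 neuropilins. The family was chosen by a measured value, the rise of the Sema3f level with age in these same data, so Sema3f is described without a test and stays out of each count of changed members. The libraries came from RNA of ovaries of female mice of the inbred strain C57BL/6 at 4 ages, with no treatment or genetic change in the labels: 5 libraries each for 3, 6 and 9 months and 4 for 12 months, numbered here within each age. Whether each library is a separate mouse is not in the labels, so p-values measure library spread, which may be technical. The depth was 10851519 to 14302207 estimated counts per library, and 30 of the 31 members passed the filter on low counts. In whole ovaries, fewer cells of a type and less RNA per cell cannot be told apart.

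As background, class 3 semaphorins are secreted and mostly bind a neuropilin, which passes the signal through a plexin of class A or D. Semaphorins of classes 4 to 7 are held in the membrane and bind plexins directly. An activated plexin switches off small GTPases of the Ras and Rap type and acts on the actin skeleton and on integrins, so that cells retract, turn or detach. The system is known best from growing axons, and it also shapes blood vessels and immune cell traffic. Neuropilins are in addition receptors of the VEGF family, and in the ovary vessels and nerves are remodelled around follicles and corpora lutea.

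The promoters of the 4 members that passed the test in at least 4 of the 6 comparisons of ages are shown here, since the results turn on these genes: 2 were higher in old ovaries (Sema3a, Sema4a) and 2 lower (Sema5a, Plxna2). Each is the 250 bases before the start in RefSeq (build GRCm38.p6), with capitals for matches on either strand to any of 5 motifs. The GC box, known to bind factors of the SP family, was searched as GGGCGG. The box bound by the factor NF-Y was searched by its usual letters CCAAT. The TATA box, where the transcription machinery can settle, was searched as TATAAA. The E-box of helix-loop-helix factors was searched as CACGTG, and the half-site that many nuclear receptors read was searched as AGGTCA. For Sema4a, with 4 starts listed, the outermost is shown. The Plxna2 window ends at 194619828, inside the span that RefSeq gives to Plxna2, which begins at 194619791. The start listed for Sema3a lies inside the longer span that RefSeq gives to this gene.
Sema3a, chr5:13396534-13396783, + strand: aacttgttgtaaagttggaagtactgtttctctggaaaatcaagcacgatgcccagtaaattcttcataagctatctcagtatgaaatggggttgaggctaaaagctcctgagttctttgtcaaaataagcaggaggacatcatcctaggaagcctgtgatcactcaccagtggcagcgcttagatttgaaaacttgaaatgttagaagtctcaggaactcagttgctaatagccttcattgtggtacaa
Sema4a, chr3:88461183-88461432, - strand: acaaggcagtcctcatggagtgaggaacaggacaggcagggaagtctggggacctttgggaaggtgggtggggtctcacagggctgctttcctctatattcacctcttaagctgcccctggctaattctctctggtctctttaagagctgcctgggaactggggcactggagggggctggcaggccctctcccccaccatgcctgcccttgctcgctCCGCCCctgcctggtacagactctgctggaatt
Sema5a, chr15:32244563-32244812, + strand: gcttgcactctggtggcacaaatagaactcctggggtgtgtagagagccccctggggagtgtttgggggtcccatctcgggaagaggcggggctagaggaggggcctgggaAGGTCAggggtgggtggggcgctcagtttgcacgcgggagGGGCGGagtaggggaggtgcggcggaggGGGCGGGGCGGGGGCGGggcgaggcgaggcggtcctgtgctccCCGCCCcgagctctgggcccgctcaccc
Plxna2, chr1:194619579-194619828, + strand: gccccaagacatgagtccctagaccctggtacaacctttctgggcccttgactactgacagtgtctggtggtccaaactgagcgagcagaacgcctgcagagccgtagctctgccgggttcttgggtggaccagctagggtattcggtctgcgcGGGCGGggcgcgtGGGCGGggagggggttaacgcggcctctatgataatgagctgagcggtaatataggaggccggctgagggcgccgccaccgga
The promoters differed in composition. The Sema3a window had 40.8% GC, 2 CpG dinucleotides and no match. Sema4a had 59.6% GC, 2 CpG and 1 GC box on the reverse strand. Sema5a had 72% GC, 17 CpG, 5 GC boxes, of which some share bases, and 1 half-site. Plxna2 had 62.8% GC, 18 CpG and 2 GC boxes. Of all 32851 promoter windows of this length in the table, 32.7% held a GC box, 33.8% an NF-Y box, 12.4% a TATA box, 6.0% this E-box and 14% the half-site. The table matched 26 members by gene ID, with 37 starts, of which 27 (73.0%) held a GC box, 7 an NF-Y box, 0 a TATA box, 2 the E-box and 7 the half-site. These starts had a median of 64.0% GC and 13 CpG, against 52.4% GC and 6 CpG over all windows. Sema3b, Sema3f, Sema6a, Plxna1 and Plxna4 were not matched.

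Levels between genes are compared per kilobase of transcript, as CPM (a count relative to its TMM-scaled library total) per kb. Plxnb2, a plexin bound by class 4 semaphorins, had the highest mean over the 19 libraries, 53.7 CPM per kb. Nrp1, the neuropilin for Sema3a and VEGF, had 51.4 and Sema7a, the lipid-anchored semaphorin, had 46.9. Sema5a had 33.0, Sema3c 27.9, Plxnc1 24.8 and Plxnd1 20.8 CPM per kb. At the low end were Sema5b at 0.931, Plxnb3 at 0.834 and Sema4f at 0.197 CPM per kb. Sema6c was listed at 0 in every library and was not tested. The smooth muscle actin gene Acta2 was also listed at 0 in every library, so such a 0 may be a failed estimate. Each pair of neighbours in this order overlapped in the range of its libraries. Plxnb2 was above 90.8% of the tested genes in this measure, and Sema4f above 1.66%. Sema3f, at 9.12 CPM per kb, stood 16th from the top.

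**Figure D1:**
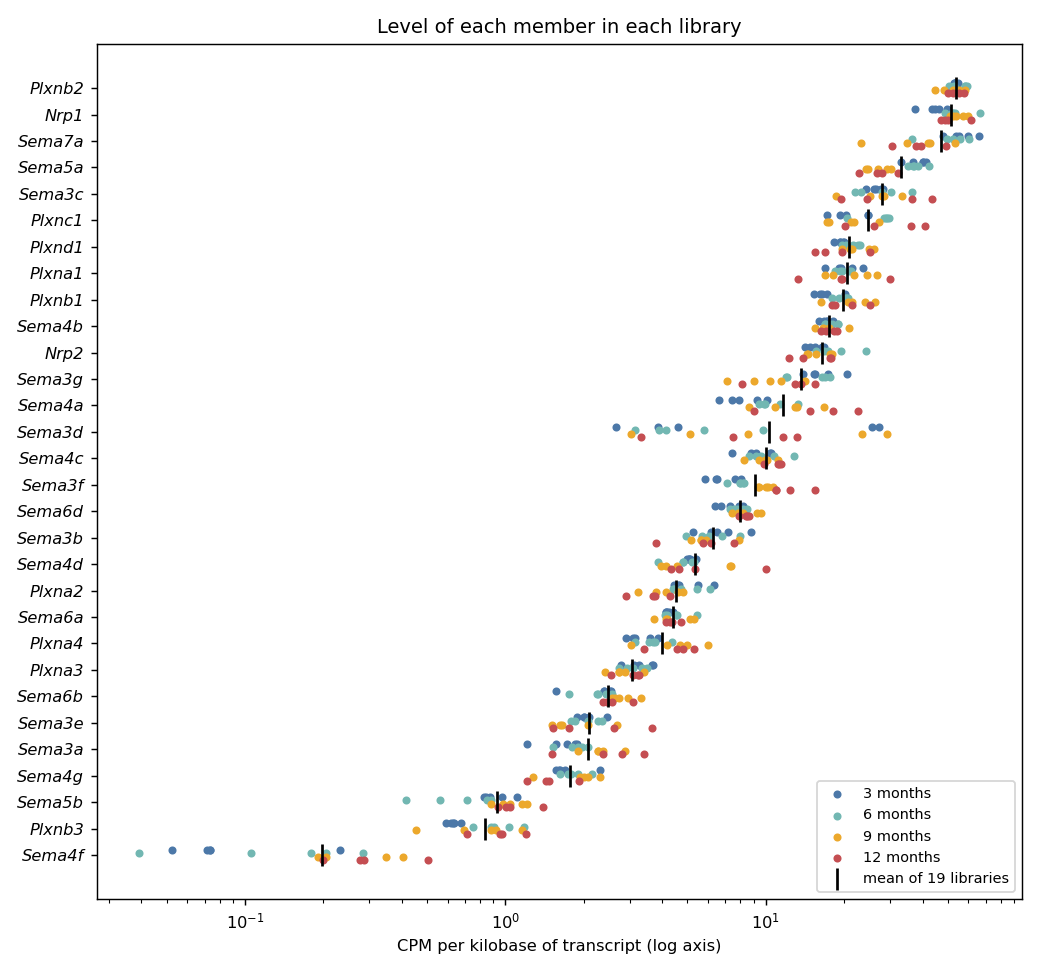
Level of each member in CPM per kilobase of transcript (log axis), 1 point per library coloured by age, with a black bar for the mean of 19 libraries. Plxnb2 and Nrp1 lead, neighbours overlap, and values of 0 (Sema6c, and Sema4f in 9 month library 3) are not drawn.

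Between 3 and 12 months, 4 of the 29 tested members other than Sema3f rose (Sema3a, Sema4a, Plxna4 and Plxnc1) and 2 fell (Sema5a and Plxna2), by edgeR's quasi-likelihood test at a Benjamini-Hochberg adjusted p under 0.05 over all 15518 genes tested. That is 20.7% of the members, where 22.4% of all genes passed (10.9% upward, 11.5% downward), so the share was near the background. The median log2 change of the 29 members was 0.19, and that of all genes 0.02. From 3 to 9 months 5 rose (Sema3a, Sema4a, Plxna4, Plxnb1 and Nrp1) and 3 fell (Sema3g, Sema5a and Sema7a), or 27.6% against a background of 25.0% (11.3% upward, 13.6% downward). From 3 to 6 months 0 members passed, where 0.0193% of all genes did (0.0129% upward, 0.00644% downward). By DESeq2 and by limma-voom 0 members passed too, where 0.303% and 1.12% of all genes did. The unadjusted edgeR p was under 0.05 for 5 members, and the share of all genes at that threshold was not taken. From 6 to 12 months, a comparison without the 3 month libraries, Sema5b rose and Sema5a and Plxna2 fell, 10.3% against a background of 13.4% (6.15% upward, 7.27% downward). Along a linear trend over the 4 ages 6 rose (Sema3a, Sema4a, Sema4f, Sema6d, Plxna4 and Plxnb1) and 4 fell (Sema3g, Sema5a, Sema7a and Plxna2), 34.5% against 29.5% (14.7% upward, 14.8% downward). Of these, Sema4f passed the filter on low counts mainly through the later ages, so its call is no support for a rise, though it stays in the count. A test for any difference between ages passed for 6 (Sema3a, Sema3g, Sema4a, Sema5a, Plxna2 and Nrp1), 20.7% against 29.0%. In all, 13 members passed in at least 1 comparison and 16 in no comparison. The share of all genes that passed in at least 1 comparison was not taken, so this count has no background beside it. The comparisons with 3 months share those libraries, and the trend uses every library.

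Every library of 12 months lay outside the range of the 3 month libraries for Sema5a and Plxna2, both lower, and Plxnb3, which was higher. Of all genes 16.5% were apart in this way. At 9 months Sema3a, Sema6b and Nrp1 were apart upward and Sema5a downward, where 14.9% of all genes were apart. At 6 months Plxnb3 was apart, against 3.64% of all genes. Between 6 and 12 months Sema5a, Sema5b and Plxna2 were apart, against 13.5%.

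Calls ended, and others appeared, under other settings. The 3 libraries with Cr2 above 5 CPM also had the highest B cell and T cell sums. Without them Sema3a (log2 change 0.40), Sema4a (0.41), Sema7a (-0.29) and Plxna4 (0.28) no longer passed at 9 months, Plxna4 (0.36) at 12 months, or Sema3g (-0.34), Sema4f (1.12) and Sema6d (0.24) along the trend. In the same fit Sema7a (-0.53), Plxnb1 (0.34) and Plxnb3 (0.72) passed at 12 months, Sema6d (0.30) at 9 months and Plxnc1 (0.54) along the trend. The count at 12 months was then 8 members, or 27.6% against 24.9% of all genes. Without a filter on low counts the calls ended for Sema4a and Sema7a at 9 months, Plxna4 and Plxnc1 at 12 months, Sema5b from 6 to 12 months, and Sema3g, Sema4f, Sema6d and Plxnb1 along the trend. When the fit held just the ages compared, Sema3a and Plxnc1 at 12 months, Sema7a and Plxnb1 at 9 months and Sema5b from 6 to 12 months did not pass, while Sema4f, Sema7a and Plxnb3 passed at 12 months and Plxnd1 at 9 months. In these 2 settings the log2 changes of the calls that ended moved by at most 0.01. With DESeq-type size factors no call ended and Sema6d passed at 9 months. By DESeq2 no call ended either, and Sema7a and Plxnb3 passed at 12 months, Sema6d at 9 months and Sema4a from 6 to 12 months. By limma-voom Sema3a (0.47) and Sema4a (0.53) at 9 months did not pass, while Sema7a passed at 12 months, Sema6d and Plxnd1 at 9 months and Sema4a from 6 to 12 months. By limma-trend on the authors' log2 values Plxna4 (0.43) and Plxnc1 (0.49) at 12 months did not. Both limma fits also ended the trend calls of Sema4f and Plxnb1. A transcript length and GC correction ended the calls of Sema4a (0.54) at 9 months, Plxna2 (-0.42) at 12 months, Sema5a (-0.25), Sema5b (0.61) and Plxna2 (-0.29) from 6 to 12 months, and Sema4f and Plxnb1 along the trend. With it Sema6d and Sema7a passed at 12 months, Sema6d at 9 months and Sema3a from 6 to 12 months. For any difference between ages the call of Sema3a ended without the Cr2 libraries and by limma-trend, that of Sema3g without the Cr2 libraries and without a filter, and that of Plxna2 with the length and GC correction. Members that had not passed that test did so in 6 settings, from 1 with DESeq-type size factors (Plxna4) to 7 by limma-voom.

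The endothelium list, 8 genes such as Pecam1 and Cdh5, moved with age beside these counts. Its summed level was 311 to 342 CPM at 3 months, 312 to 363 at 6, 455 to 512 at 9 and 385 to 446 at 12 months, with 8 of 8 genes higher at 9 months and 3 at 12 months by the same test. With this list as a covariate 0 members passed at 12 or at 9 months against 3 months and 1, Plxnc1, along the trend. Of all genes 0.206% then passed at 12 months, 0% at 9 months and 2.58% along the trend, so age and the endothelium list cannot be told apart well in these libraries.

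**Figure D2:**
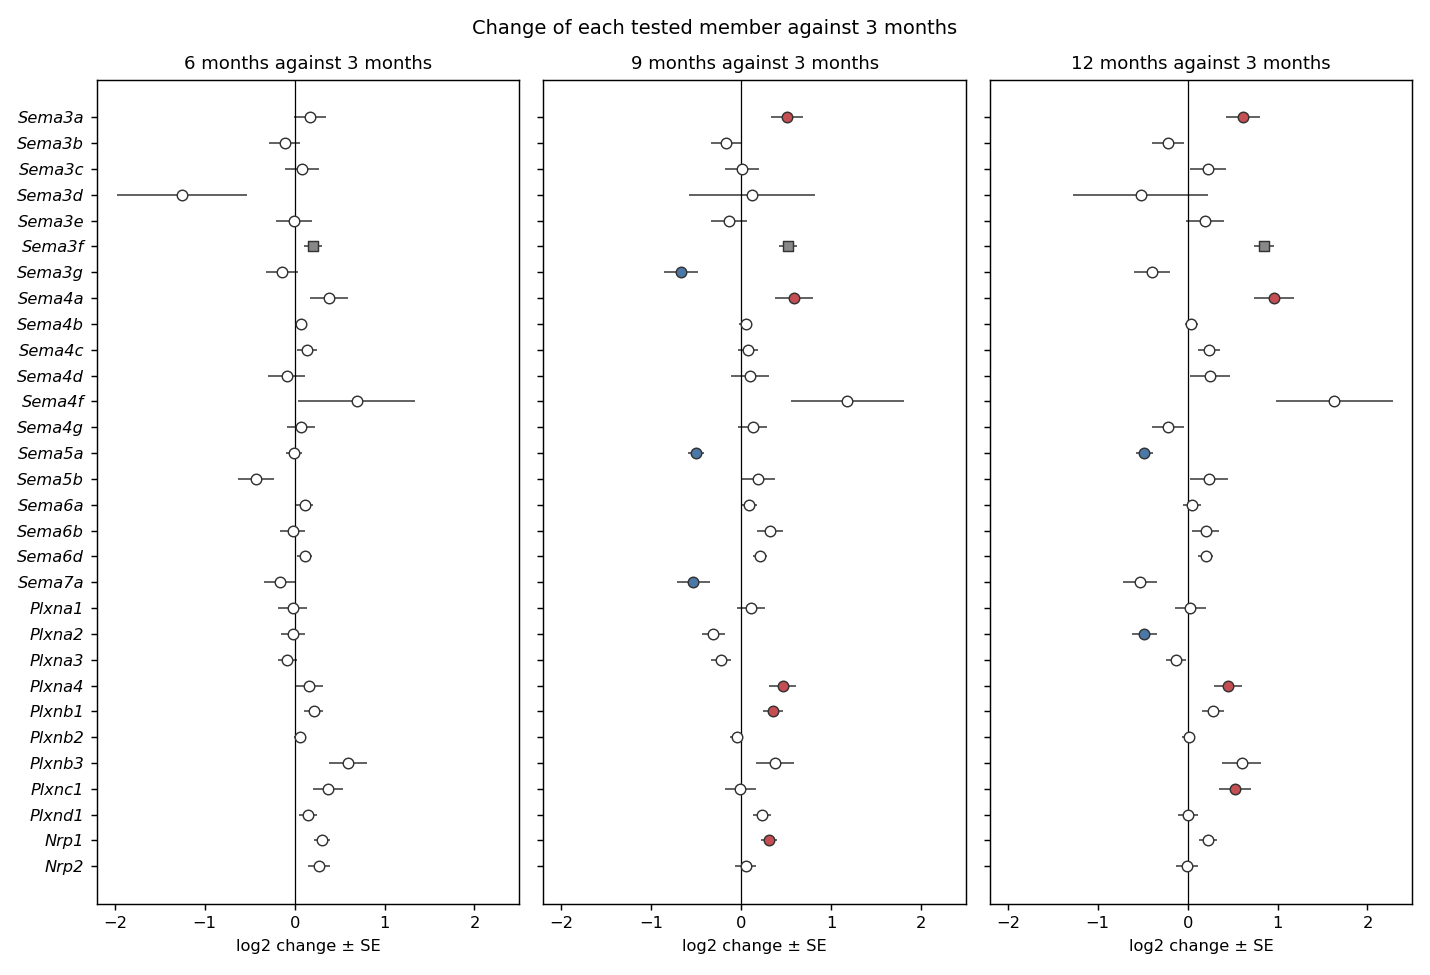
Log2 change against 3 months with its standard error for each tested member at 6, 9 and 12 months. Red points passed the test upward, blue points downward, open points did not pass, and the grey square is Sema3f, which was not tested. No member passed at 6 months, and 8 passed at 9 months and 6 at 12 months.

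Sema3f encodes a secreted semaphorin known for binding Nrp2 and for repelling blood vessels and axons. It lies on chromosome 9 from 107681499 to 107710475 (GRCm38), near Sema3b at 107597674 to 107609241. Its level was 19.8, 21.8, 25.9, 22.0 and 27.4 CPM in the 3 month libraries and 28.1, 27.0, 27.7, 27.0 and 24.2 CPM at 6 months. At 9 months it was 31.9, 36.3, 33.9, 31.7 and 34.5 CPM, and at 12 months 42.2, 37.2, 52.4 and 37.1 CPM. The ranges at 3 and 6 months overlapped, the 9 month libraries lay above both, and the 12 month libraries lay above those of 9 months. The means were 23.4 ± 3.14 (SD, n = 5), 26.8 ± 1.53 (n = 5), 33.7 ± 1.91 (n = 5) and 42.2 ± 7.18 CPM (n = 4). The log2 change was 0.20 ± 0.10 (SE) at 6 months, 0.52 ± 0.10 at 9 months and 0.85 ± 0.11 at 12 months. These values chose the family and are given as a description. Nrp2, its main co-receptor, had a log2 change of -0.01 ± 0.12 at 12 months. The neighbouring Sema3b had -0.22 ± 0.18.

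**Figure D3:**
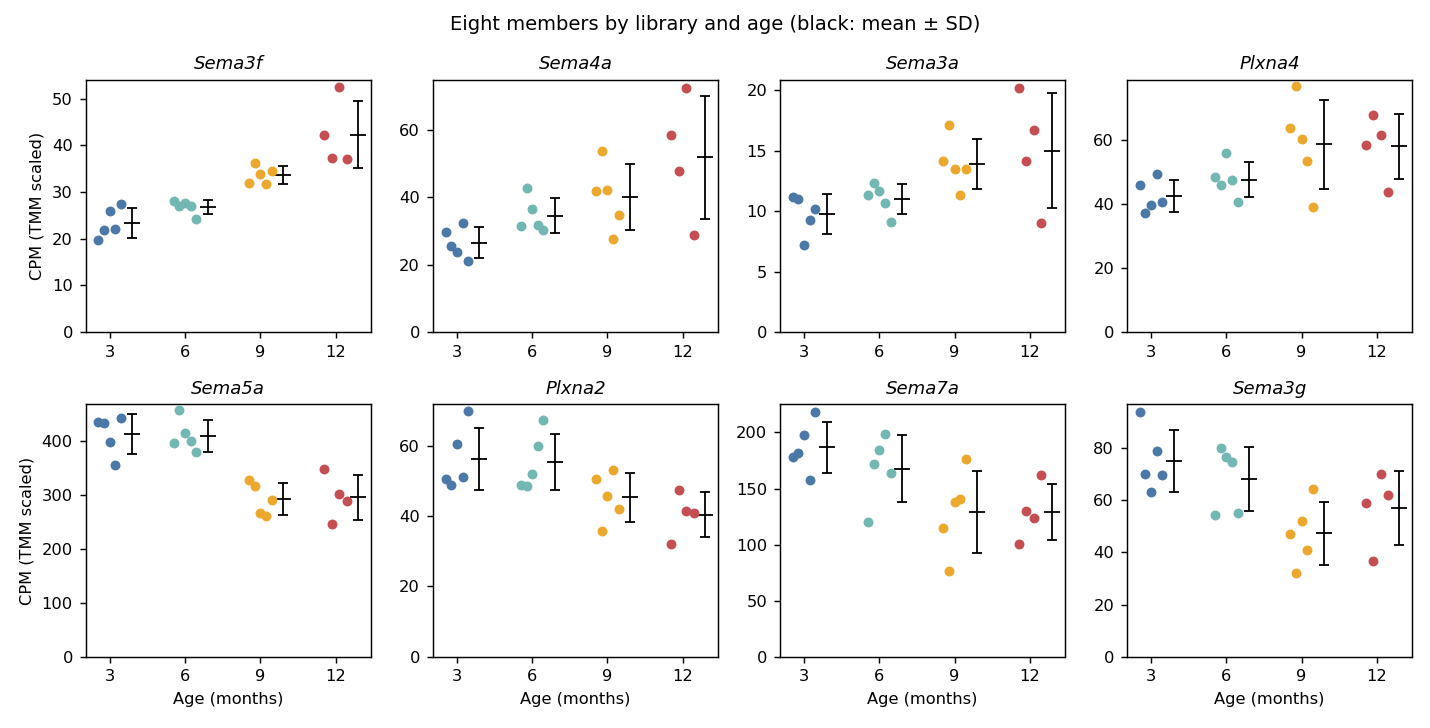
CPM in each library against age in months for 8 members, with the mean and SD in black. Sema3f, Sema4a, Sema3a and Plxna4 are in the upper row, Sema5a, Plxna2, Sema7a and Sema3g in the lower row. Sema5a was at 356 CPM or more at 3 months and at 348 CPM or less at 12 months.

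Among the other secreted semaphorins, Sema3a rose, Sema3g fell, and Sema3b, Sema3c, Sema3d and Sema3e did not pass in the 6 comparisons. Sema3a, a factor that collapses axon tips and a ligand of Nrp1 with class A plexins, lies on chromosome 5 from 13124822 to 13603485. It was at 11.2, 11, 7.18, 9.26 and 10.2 CPM at 3 months and 11.3, 12.3, 11.7, 10.7 and 9.07 CPM at 6 months. At 9 months it was at 14.1, 17.1, 13.5, 11.3 and 13.5 CPM, and at 12 months at 20.2, 14.1, 16.7 and 8.99 CPM. The 9 month libraries were all above those of 3 months, while 12 month library 4 was below 4 of the 5 libraries of 3 months. Sema3a rose by 0.51 ± 0.18 (log2, SE) at 9 months (edgeR adjusted p = 0.0415) and by 0.62 ± 0.19 at 12 months (edgeR adjusted p = 0.0234). The rise along the trend was 0.67 ± 0.17 over 9 months (edgeR adjusted p = 0.00687) and passed in each of the 19 fits with 1 library left out. The 12 month call was lost without 3 month library 3 or 12 month library 1 or 3 (log2 change 0.44 to 0.56). The 9 month call was lost without 3 month library 3, 4 or 5, 6 month library 4 or 9 month library 1, 2 or 3 (0.43 to 0.54).

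At 12 months the highest Sema3a levels were in libraries 1 and 3, which also differed from the others of that age in marker lists. The list of 6 neuron and glia genes summed to 140 and 107 CPM there and to 36.4 to 60.9 CPM in the other 17 libraries of the series. Of these 6 genes 1 was higher at 12 months by edgeR's test, and whether 1 gene leads the sum was not taken. The surface epithelium list was at 956 and 1018 CPM and the oviduct list at 5178 and 4157 CPM, against 745 and 608 and against 2378 and 3207 CPM in 12 month libraries 2 and 4. Over all ages these 2 lists were highest in 9 month library 2, at 1067 and 6295 CPM. That library had 17.1 CPM of Sema3a, 183 of Sema3c, 18.4 of Sema3e and 53.7 of Sema4a, each the highest of its age, and 126 CPM of Plxnc1, the lowest of its age. Sema3c, a semaphorin of vessel and epithelial development, was at 239 and 200 CPM in libraries 1 and 3 and at 134 and 107 CPM in the others of that age. Sema3e, which binds Plxnd1 without a neuropilin, was at 25.1 and 17.9 against 10.5 and 12.0 CPM. Sema3f (42.2 and 52.4 against 37.2 and 37.1 CPM) and Sema4a (58.3 and 72.2 against 47.6 and 28.9 CPM) were also highest in libraries 1 and 3 of that age. The part of these cells and tissues in the levels of these members was not tested.

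Sema3g, a secreted semaphorin known from vessel endothelium, lies on chromosome 14 from 31217873 to 31230352. It was at 93.5, 69.9, 63.0, 78.6 and 69.6 CPM at 3 months, 54.3, 79.9, 76.6, 74.4 and 54.9 at 6 months, 47.1, 32.2, 51.9, 40.8 and 64.3 at 9 months and 58.9, 36.8, 70.0 and 62.0 at 12 months. It was lowest at 9 months, where 4 of the 5 libraries were below the 3 month range, and 12 months overlapped 3 months. It fell by 0.67 ± 0.19 (log2, SE) at 9 months (edgeR adjusted p = 0.0146), a call kept with each library left out. Its change was -0.40 ± 0.20 at 12 months (edgeR adjusted p = 0.154), and along the trend it fell by 0.53 ± 0.20 (edgeR adjusted p = 0.0476). The trend call was lost in 13 of the 19 fits with 1 library left out: each 3 month library, 6 month libraries 2 to 5, 9 month libraries 1, 3 and 4 and 12 month library 2 (-0.57 to -0.44). The 3 lowest libraries, 9 month libraries 2 and 4 and 12 month library 2, also had the 3 lowest sums of the granulosa list, at 628, 890 and 925 CPM. That list was at 1392 to 1922 CPM at 3 months, with 2 of its 5 genes lower at 9 months and 2 at 12 months. The endothelium list was higher at 9 months, at 455 to 512 CPM against 311 to 342 CPM at 3 months. Of the low libraries, 9 month library 2 and 12 month library 2 also had Cr2 above 5 CPM. Without the Cr2 libraries the trend was -0.34 and did not pass, while the 9 month call was kept. The part of these cells in Sema3g was not tested.

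Sema3d varied more within an age than between ages. It was at 29.0, 171, 24.3, 16.8 and 162 CPM at 3 months, 26.0, 24.5, 19.8, 36.6 and 61.6 at 6 months, 32.2, 19.2, 53.8, 184 and 148 at 9 months and 20.9, 82.8, 73.4 and 47.4 at 12 months. Its highest library was 11 times its lowest, and 2 libraries each at 3 and 9 months stood far above the rest. Its log2 change at 12 months was -0.52 ± 0.75 (SE; edgeR adjusted p = 0.657). Sema3a, Sema3c, Sema3d and Sema3e all lie on chromosome 5 between 12383161 and 17730268, and their levels did not share this pattern: Sema3c ranged from 102 to 239 CPM and Sema3e from 10.4 to 25.1 CPM. Sema3b, at 13 to 30.2 CPM, had a log2 change of -0.22 ± 0.18 at 12 months. Sema3c had 0.23 ± 0.20 and Sema3e 0.19 ± 0.21.

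**Figure D4:**
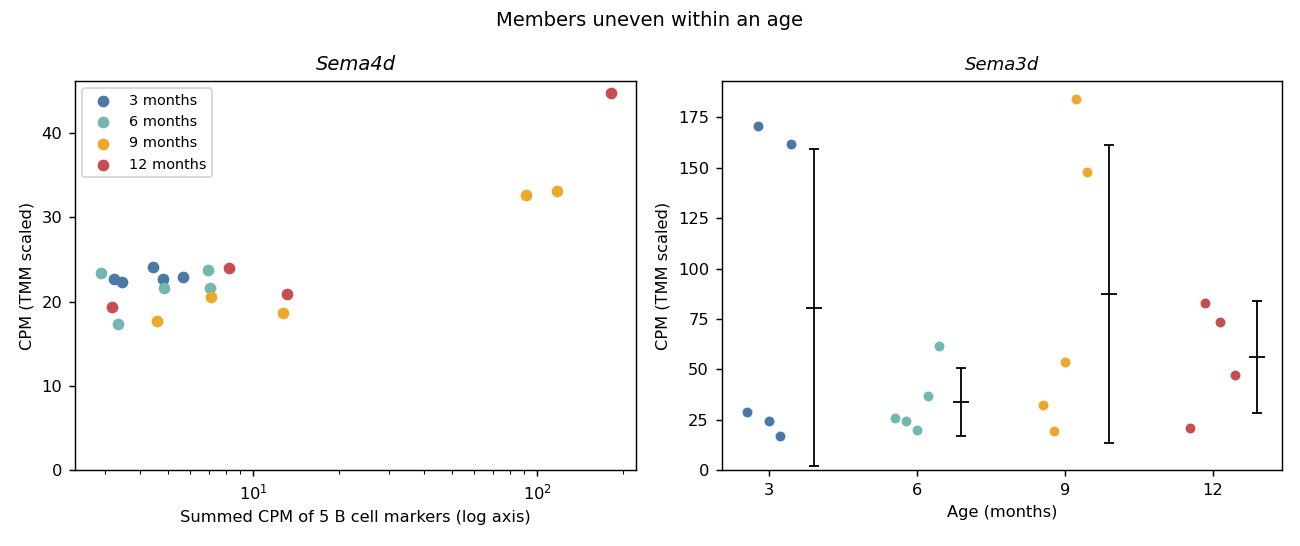
Left, Sema4d in CPM against the summed CPM of 5 B cell markers (log axis), 1 point per library coloured by age. Right, Sema3d in CPM by age with mean and SD in black. The 3 libraries with the highest B cell sums have the highest Sema4d levels, and Sema3d is above 140 CPM in 2 libraries at 3 months and 2 at 9 months.

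Of the membrane semaphorins, Sema4a rose and Sema5a fell at 12 and at 9 months, and Sema7a fell at 9 months. Sema4a, known as a semaphorin of immune cells, lies on chromosome 3 from 88435959 to 88461182. It was at 29.8, 25.4, 23.8, 32.4 and 21.2 CPM at 3 months and 31.5, 42.6, 36.4, 31.8 and 30.3 CPM at 6 months. It was at 41.7, 53.7, 42.1, 27.7 and 34.7 CPM at 9 months and at 58.3, 47.6, 72.2 and 28.9 CPM at 12 months. The group means followed age, but 9 month library 4 and 12 month library 4 were within the 3 month range. Sema4a rose by 0.96 ± 0.22 (log2, SE) at 12 months (edgeR adjusted p = 0.00536) and by 0.93 ± 0.19 along the trend (edgeR adjusted p = 0.00197), and both calls held with each library left out. At 9 months it rose by 0.59 ± 0.21 (edgeR adjusted p = 0.042), a call lost without 3 month library 1, 2, 3 or 5, 6 month library 3 or 4 or 9 month library 1, 2 or 3 (log2 change 0.48 to 0.64). The summed macrophage list was at 255 to 358 CPM at 3 months and at 496, 526, 367 and 324 CPM in 12 month libraries 1 to 4. At 9 months it was at 493, 549, 414, 481 and 289 CPM, and library 4 of that age, at 481 CPM, had 27.7 CPM of Sema4a, within the 3 month range. The part of the macrophages in Sema4a was not tested.

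Sema5a, a semaphorin with thrombospondin repeats that binds proteoglycans and class A and B plexins, lies on chromosome 15 from 32244813 to 32696341. It was at 436, 434, 398, 356 and 444 CPM at 3 months and 396, 458, 416, 400 and 380 CPM at 6 months. It was at 328, 317, 267, 262 and 291 CPM at 9 months and at 348, 246, 302 and 289 CPM at 12 months. The 10 libraries of 3 and 6 months were all above the 9 of 9 and 12 months. Sema5a fell by 0.50 ± 0.09 (log2, SE) at 9 months (edgeR adjusted p = 0.000648) and by 0.48 ± 0.09 at 12 months (edgeR adjusted p = 0.00253), and its change at 6 months was -0.01 ± 0.09. It fell by 0.47 ± 0.09 from 6 to 12 months (edgeR adjusted p = 0.00413) and by 0.59 ± 0.11 along the trend (edgeR adjusted p = 0.000863). These calls held with each library left out, and that from 6 to 12 months was lost with a correction for transcript length and GC content. The oocyte list was at 166 to 253 CPM at 3 months, 91.9 to 189 at 6, 9.07 to 79.1 at 9 and 29.4 to 79.6 at 12 months. The theca list was at 458 to 816, 227 to 754, 68.5 to 355 and 105 to 171 CPM. Their part in Sema5a was not tested.

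Sema7a, which binds Plxnc1 and integrins, lies on chromosome 9 from 57939596 to 57962865. It was at 178, 182, 198, 158 and 218 CPM at 3 months, 120, 172, 184, 199 and 164 at 6 months, 115, 76.4, 138, 141 and 176 at 9 months and 101, 130, 124 and 162 at 12 months. A single library at 9 months and a single one at 12 months reached into the 3 month range. It fell by 0.60 ± 0.18 (log2, SE) along the trend (edgeR adjusted p = 0.0145), a call kept with each library left out. At 9 months it fell by 0.53 ± 0.18 (edgeR adjusted p = 0.0389), a call lost without 3 month library 1, 2, 3 or 5 or 9 month library 1, 2, 3 or 4 (-0.55 to -0.38). At 12 months its change was -0.53 ± 0.19 (edgeR adjusted p = 0.0555), and it passed there in 5 of the 10 other settings and in 5 of the 19 fits with 1 library left out. The library with the lowest Sema7a, 9 month library 2, had the lowest sums of the oocyte list (9.07 CPM), the theca list (68.5 CPM) and the granulosa list (628 CPM). In 9 month library 4 these were at 33.5, 71.8 and 890 CPM, and Sema7a was at 141 CPM. The 9 month library 2 also had Cr2 above 5 CPM and the highest oviduct and surface epithelium sums of the series. Without the libraries with Cr2 above 5 CPM the 9 month change was -0.29 and did not pass. In that fit the trend call was kept and the 12 month change (-0.53) passed. The part of these cells and tissues in Sema7a was not tested.

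The smaller calls among the membrane semaphorins were Sema6d, Sema5b and Sema4f. Sema6d, a transmembrane ligand of Plxna1 in heart and immune cells, was at 41.2, 47.0, 43.4, 50.8 and 52.6 CPM at 3 months and 50.2, 47.0, 54.8, 52.7 and 48.6 CPM at 6 months. It was at 47.7, 52.8, 61.8, 59.4 and 50.4 CPM at 9 months and at 54.7, 55.7, 54.2 and 50.8 CPM at 12 months, with overlap between all ages. It rose by 0.22 ± 0.08 (log2, SE) along the trend (edgeR adjusted p = 0.0441), a call lost without 3 month library 1, 2 or 3, 6 month library 1, 2 or 5, 9 month library 4 or 12 month library 1, 2 or 3 (0.17 to 0.23).

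Sema5b, the close relative of Sema5a, was at 3.68, 3.59, 3.80, 4.81 and 4.23 CPM at 3 months, 3.11, 2.45, 3.69, 1.81 and 3.84 at 6 months, 5.05, 3.82, 4.26, 4.52 and 5.25 at 9 months and 4.07, 4.36, 6.08 and 4.53 at 12 months. The 3 lowest values were at 6 months. It rose by 0.68 ± 0.21 (log2, SE) from 6 to 12 months (edgeR adjusted p = 0.038), a call lost without 6 month library 1, 2 or 4 or 12 month library 3 or 4 (0.54 to 0.69). Its change from 3 to 12 months was 0.24 ± 0.21.

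Sema4f, a semaphorin known from neurons and Schwann cells, had 202 estimated counts over all 19 libraries. It was at 0.300, 0.299, 0.215, 0.292 and 0.947 CPM at 3 months, 0.731, 0.433, 0.160, 1.16 and 0.837 at 6 months, 1.42, 1.66, 0, 0.780 and 0.837 at 9 months and 1.17, 2.07, 0.816 and 1.13 at 12 months. At 3 months 4 of the 5 libraries were at 0.300 CPM or less, but the ages overlapped. It rose by 1.61 ± 0.59 (log2, SE) along the trend (edgeR adjusted p = 0.0438). The gene passed the filter on low counts mainly through the later ages, where it was higher, so this call is no support for a rise. Without that filter the call was lost. The highest values, 2.07, 1.66 and 1.42 CPM, were in the libraries with Cr2 above 5 CPM. Without those libraries the trend was 1.12 and did not pass. The trend call was also lost in 11 of the 19 fits with 1 library left out: 3 month libraries 1 to 4, 6 month libraries 1 to 3, 9 month libraries 1 and 2 and 12 month libraries 1 and 2 (1.37 to 1.67).

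Sema4d, a semaphorin of lymphocytes that binds Plxnb1 and Cd72, did not pass but was uneven. It was at 32.7 and 33.1 CPM in 9 month libraries 1 and 2 and at 44.8 CPM in 12 month library 2, and at 17.3 to 24.1 CPM in the other 16 libraries. Those 3 libraries were also the ones with Cr2, a complement receptor of B cells and lymphoid follicles, above 5 CPM, and their B cell list summed to 91.3, 117 and 181 CPM, while no other library had more than 13.1 CPM. The log2 change of Sema4d at 12 months was 0.25 ± 0.22 (SE) with these libraries and -0.10 ± 0.11 without them. The lymph node vessel sums were also highest in these 3 libraries, and the part of such tissue in Sema4d was not tested. The plot of Sema4d against B cell markers shows the 3 libraries at the right.

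The other membrane semaphorins, Sema4b, Sema4c, Sema4g, Sema6a and Sema6b, did not pass in the 6 comparisons. Sema4b, at 61.0 to 82.5 CPM, was even over the libraries, with a log2 change of 0.04 ± 0.07 (SE) at 12 months. Sema6a, a ligand of Plxna2 and Plxna4, was at 25.5 to 37.2 CPM with a change of 0.05 ± 0.10. Sema4c, a ligand of Plxnb2, ran from 28.9 to 50.0 CPM and changed by 0.24 ± 0.12. Sema4g ran from 5.51 to 10.5 CPM, with a change of -0.22 ± 0.18. Sema6b ran from 5.83 to 12.4 CPM, with a change of 0.20 ± 0.15 at 12 months and 0.32 ± 0.14 at 9 months, where its libraries lay above those of 3 months.

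Of the 9 plexins, Plxna4 and Plxnc1 rose and Plxna2 fell between 3 and 12 months, and Plxnb1 rose at 9 months. Plxna2, a class A plexin that pairs with neuropilins and binds class 6 semaphorins, lies on chromosome 1 from 194619791 to 194816869. It was at 50.7, 49.0, 60.6, 51.2 and 69.9 CPM at 3 months and 49.0, 48.7, 52.1, 60.0 and 67.3 CPM at 6 months. It was at 50.6, 35.7, 45.8, 53.2 and 41.9 CPM at 9 months and at 32.1, 47.4, 41.5 and 40.8 CPM at 12 months. The 12 month libraries were below every library of 3 and 6 months, and those of 9 months overlapped both ends. Plxna2 fell by 0.48 ± 0.14 (log2, SE) at 12 months (edgeR adjusted p = 0.0199) and by 0.51 ± 0.13 along the trend (edgeR adjusted p = 0.00628), the latter kept with each library left out. The 12 month call was lost without 3 month library 5 or 12 month library 1 (-0.39 and -0.38) and with the length and GC correction. From 6 to 12 months it fell by 0.46 ± 0.14 (edgeR adjusted p = 0.0364), a call lost with the same correction and without 6 month library 3, 4 or 5 or 12 month library 1, 3 or 4 (-0.48 to -0.36).

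Plxna4, the class A plexin of Sema3a signalling and of Sema6 ligands, lies on chromosome 6 from 32144543 to 32588192. It was at 46.1, 37.3, 39.7, 49.6 and 40.7 CPM at 3 months and 48.5, 45.9, 56.1, 47.6 and 40.7 CPM at 6 months. It was at 64.0, 77.0, 60.5, 53.7 and 39.1 CPM at 9 months and at 58.7, 68.0, 61.7 and 44.0 CPM at 12 months. A single library at 9 months and a single one at 12 months were within the 3 month range. Plxna4 rose by 0.51 ± 0.15 (log2, SE) along the trend (edgeR adjusted p = 0.0137), kept with each library left out. It rose by 0.46 ± 0.15 at 9 months (edgeR adjusted p = 0.0273), lost without 3 month library 2, 3 or 5 or 9 month library 2 (0.36 to 0.46). The 12 month rise of 0.45 ± 0.16 (edgeR adjusted p = 0.046) was lost without 3 month library 1, 2, 3 or 5, 6 month library 1, 2 or 4, 9 month library 3 or 12 month library 1, 2 or 3 (0.36 to 0.47). The highest values, 77.0, 68.0 and 64.0 CPM, were in the libraries with Cr2 above 5 CPM. Without those libraries the change was 0.28 at 9 months and 0.36 at 12 months, and neither passed. The trend was then 0.36 ± 0.13 and still passed (edgeR adjusted p = 0.0406). The part of B and T cells in Plxna4 was not tested.

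Plxnc1, the receptor of Sema7a, was at 181, 141, 148, 125 and 181 CPM at 3 months, 150, 218, 213, 212 and 208 at 6 months, 155, 126, 160, 128 and 199 at 9 months and 299, 147, 263 and 190 at 12 months. Its highest values were in 12 month libraries 1 and 3, the libraries with the highest neuron and glia sums. In 9 month library 2, which had the highest epithelium and oviduct sums, it was at 126 CPM, and 4 of the 5 libraries of that age lay within the 3 month range. It rose by 0.53 ± 0.18 (log2, SE) at 12 months (edgeR adjusted p = 0.0454), and its change at 9 months was -0.01 ± 0.17. The call was lost without 3 month library 2, 3 or 4, 6 month library 2, 3, 4 or 5, 9 month library 1 or 3 or 12 month library 1 or 3 (0.37 to 0.53). The part of these tissues in Plxnc1 was not tested.

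Plxnb1, the receptor of Sema4d, was at 132, 175, 142, 149 and 140 CPM at 3 months, 176, 179, 166, 176 and 155 at 6 months, 141, 185, 227, 208 and 179 at 9 months and 156, 159, 185 and 218 at 12 months. Each later age overlapped 3 months. Plxnb1 rose by 0.35 ± 0.11 (log2, SE) at 9 months (edgeR adjusted p = 0.0282), lost without 3 month library 1, 3 or 5 or 9 month library 3 or 4 (0.29 to 0.35). Along the trend it rose by 0.32 ± 0.12 (edgeR adjusted p = 0.0469). That call was lost in 14 of the 19 fits: without 3 month library 1, 3, 4 or 5, 6 month library 1, 3, 4 or 5, 9 month library 2, 3, 4 or 5 or 12 month library 3 or 4 (0.27 to 0.33).

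Plxnb3, a plexin bound by Sema5a, was at 3.83, 3.74, 3.80, 4.08 and 3.57 CPM at 3 months and at 7.27, 4.29, 5.86 and 5.74 CPM at 12 months. Every 12 month library was above every 3 month library, and so were the 6 month libraries, at 4.55 to 7.11 CPM. Its change did not pass, at 0.60 ± 0.22 (log2, SE) for 12 months (edgeR adjusted p = 0.0543) and 0.59 ± 0.21 for 6 months (edgeR adjusted p = 0.427). The 12 month change passed by DESeq2 (adjusted p = 0.0383), without the Cr2 libraries (edgeR adjusted p = 0.0203), with just the ages compared (edgeR adjusted p = 0.0498), and without 9 month library 2 or 3 or 12 month library 2. Plxnb2 was steady at 290 to 384 CPM, with a log2 change of 0.01 ± 0.07 at 12 months. Plxnd1, the vessel receptor of Sema3e, ran from 107 to 180 CPM, with 0.00 ± 0.11 at 12 months. Plxna1 ran from 120 to 271 CPM (0.03 ± 0.17) and Plxna3 from 16.8 to 25.7 CPM (-0.13 ± 0.11).

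The 2 neuropilins differed in level and in calls. Nrp1, on chromosome 8 from 128358591 to 128505476, was at 157, 166, 179, 161 and 135 CPM at 3 months and 240, 189, 191, 187 and 175 CPM at 6 months. It was at 216, 189, 194, 206 and 183 CPM at 9 months and at 175, 220, 181 and 169 CPM at 12 months. The 9 month libraries were above those of 3 months, and those of 6 and 12 months overlapped them. Nrp1 rose by 0.31 ± 0.09 (log2, SE) at 9 months (edgeR adjusted p = 0.0183), a call kept with each library left out, and had 0.30 ± 0.09 at 6 months (edgeR adjusted p = 0.388) and 0.23 ± 0.10 at 12 months (edgeR adjusted p = 0.0938). With the endothelium list as a covariate its 9 month change was -0.38 ± 0.19 (edgeR adjusted p = 0.769). Nrp2, the neuropilin of Sema3f and of lymphatic VEGF signalling, ran from 82.3 to 163 CPM. Its change was 0.27 ± 0.12 at 6 months (edgeR adjusted p = 0.472) and 0.05 ± 0.12 at 9 months.

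Ligands and their known receptors are set side by side here, without a test of the difference. At 12 months the class A plexins were at a log2 change of 0.03 (Plxna1), -0.48 (Plxna2), -0.13 (Plxna3) and 0.45 (Plxna4), of which Plxna2 and Plxna4 passed in opposite directions. Beside them and their neuropilins stood Sema3a (0.62) with Nrp1 (0.23), and Sema3f (0.85) with Nrp2 (-0.01). Sema5a (-0.48) stood beside the same class A plexins and, in class B, Plxnb1 (0.28), Plxnb2 (0.01) and Plxnb3 (0.60), none of which passed at this age. Sema7a (-0.53), which did not pass here, stood beside Plxnc1 (0.53), which did. Sema4d (0.25) stood beside Plxnb1 (0.28).

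Of the 54 tested partner genes, 11 rose and 4 fell between 3 and 12 months, with a median log2 change of 0.15 against 0.02 over all genes. That is 27.8% of them against 22.4% of all genes (20.4% against 10.9% upward, 7.41% against 11.5% downward). Along the trend 11 rose and 5 fell, 29.6% against 29.5%, so that share was at the background. Of 16 tested co-receptors and other surface partners 5 rose and 0 fell (median 0.25), where 10.9% of all genes rose and 11.5% fell. Tyrobp, the adaptor of immune receptors, rose by 0.74 ± 0.18 (log2, SE; edgeR adjusted p = 0.0085). Its partner Trem2, part of a plexin A1 receptor complex, rose by 0.88 ± 0.25 (edgeR adjusted p = 0.0171). Both are macrophage genes, and the macrophage list had 4 of 7 members higher at 12 months. Timd2, a receptor of Sema4a, rose by 1.58 ± 0.44 (edgeR adjusted p = 0.017) and averaged 0.783 ± 0.330 CPM at 3 months (SD, n = 5) and 2.35 ± 1.22 at 12 months (n = 4), a call lost without 12 month library 1 (1.32). The VEGF receptor Flt4, a partner of Nrp2 in lymphatic vessels, rose by 0.33 ± 0.09 (edgeR adjusted p = 0.015), a call lost without 12 month library 4 (0.22). Of the 5 VEGF ligands that neuropilins share, 0 passed (median 0.04). Havcr1 was not tested.

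Of 33 effectors inside the cell 6 rose (18.2%, against 10.9% of all genes) and 4 fell (12.1%, against 11.5%), with a median of 0.15. The change with the smallest p was a fall: Dpysl5, a collapsin response mediator of the axon skeleton, went from 36.5 ± 3.77 CPM at 3 months (SD, n = 5) to 25.9 ± 4.59 at 6 months (n = 5), 16.3 ± 4.60 at 9 months (n = 5) and 15.5 ± 2.52 CPM at 12 months (n = 4). It fell by 1.24 ± 0.18 (log2, SE; edgeR adjusted p = 0.000417), and its highest 12 month library, 19.3 CPM, was below its lowest at 3 months, 32.9 CPM. Gipc1, an adaptor that binds the tail of Nrp1, rose by 0.39 ± 0.08 (edgeR adjusted p = 0.00281). The kinase Fes, which acts below Sema3a, rose by 0.86 ± 0.19 (edgeR adjusted p = 0.00471). The GTPase Rnd3 rose by 0.47 ± 0.12 (edgeR adjusted p = 0.00975). These 4 calls held with each library left out.

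Some members share exon bases with another annotated gene, and whether counting used strand is not given in the sources used here, so their values are uncertain to that extent. In GENCODE M21, Plxna1 shares 970 bases, Sema4c 334, Plxnb1 257 and Plxna4 110 with a gene on the opposite strand. On their own strand Plxnc1 shares 115 bases with Gm48718, Nrp1 80 with Mir1903 and Sema4a 73 with Mir7011.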

How the data were processed

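Ovary RNA of 19 libraries was sequenced from a strand-keeping kit, per the labels' protocols. The raw values that the authors deposited are estimated counts, since 17.4% to 21.4% of a library's nonzero values are whole within 1e-08, and the headers call them raw. The submitters' processing notes name build mm10, and no source used here gives the aligner, the counter or its use of strand. The authors also deposited log2 values relative to the 3 month median, used in 1 alternative. A further column per table (1 each) matches no sample and was not used.

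Counts were rounded and filtered (edgeR's filterByExpr, minimum count 10, minimum total 15), which left 15518 genes, scaled by TMM and tested with edgeR 4.0.16 (quasi-likelihood, robust, a mean per age over all 19 libraries, or age in months as a number with the change given over 9 months). P-values were adjusted by Benjamini-Hochberg over all genes tested, with a threshold of 0.05. Log2 changes carry a standard error (SE). At these depths genes with few counts, such as Sema4f, have wide errors. The steps were tested on simulated counts.

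Members, gene lists and tests were chosen with earlier results of these data known. The naming rule gives all members, values per library for Sema3f and each member past the threshold, and from each partner list up to 4 genes with the smallest p at 12 months. Sema3d, Sema4d and Plxnb3 are given by library beyond that rule, chosen after their values were seen, as are pairs of ligand and receptor. Of the other marker lists, liver genes summed to 529 CPM in 9 month library 3 and 157 CPM in library 2, and adipocyte genes to 510 CPM in 9 month library 1. Alternatives were DESeq-type size factors, DESeq2 1.42.0, limma 3.58.1 (voom with sample weights, or limma-trend on the authors' log2 values), other filters, an adjusted p under 0.01, libraries with Cr2 over 5 CPM left out, an endothelium covariate, a correction for length and GC (known for 95.7% of tested genes), the ages compared alone, and each library left out. Transcript lengths and shared exon bases are from GENCODE M21 (GRCm38), gene spans and promoters from RefSeq.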

Additional observations from a re-analysis of the deposited data

Results flagged for a closer look

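Of 120 sets of libraries of 1 member at 1 age, 6 held a library far from the others by Dixon's test, and chance gives about 1 in 20. Sema3b was at 27.0 CPM in 9 month library 1, against 17.7 to 20.3 CPM in the others of that age. Sema4f was at 0.947 CPM in 3 month library 5, against 0.215 to 0.300 CPM. Sema4g was at 10.5 CPM in 3 month library 2, against 7.14 to 7.73 CPM. Sema6b was low in 3 month library 5, at 5.83 against 8.93 to 9.55 CPM. In 6 month library 1 Plxnc1 was low, at 150 against 208 to 218 CPM, and Nrp1 was high, at 240 against 175 to 191 CPM.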

How the results depend on the processing

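Between 3 and 12 months, 3 and 9 months, 6 and 12 months, along the trend and for any difference, 6, 8, 3, 10 and 6 members passed. At an adjusted p under 0.01 these were 2, 1, 1, 4 and 1 of 29, where 8.73%, 12.1%, 3.47%, 15.1% and 13.3% of all genes passed, and partner genes 5 at 12 months (9.26%) and 10 along the trend (18.5%). With the endothelium list as a covariate they were 0, 0, 0, 1 and 0 (all genes 0.206%, 0%, 0.380%, 2.58% and 0.148%), and partner genes 1 and 2; in that fit the 9 month changes of Plxna4 (-0.23) and Nrp1 (-0.38) turned negative without passing, and Sema3f was at 1.04 (12 months) and 0.85 (9 months). Without the libraries with Cr2 over 5 CPM 5 members passed at 9 months (17.2%, all genes 17.7%), with the length and GC correction 1 from 6 to 12 months (3.45%, all genes 3.85%), and without a filter 6 along the trend (20.7%, all genes 22.2%). For any difference 10 passed by DESeq2 (34.5%, all genes 36.3%) and 13 by limma-voom (44.8%, all genes 34.2%). With the ages compared alone 9 partner genes passed at 12 months (16.7%, all genes 17.4%). Leaving out 1 library gave 2 to 8 members at 12 months, 3 to 10 at 9, 0 to 0 at 6, 1 to 4 from 6 to 12 months, 6 to 9 along the trend and 3 to 9 for any difference, and 10 to 19 and 13 to 20 partner genes at 12 months and along the trend; of all genes 13.8% to 24.5%, 18% to 28.9%, 0% to 0.0258%, 5.51% to 15.1%, 24.6% to 31.1% and 23.5% to 32.9% then passed, in the same order. The causes were not tested. No paired analysis was possible because the labels give no replicate number shared between ages.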
